A study of Mus musculus with 12 samples.

Results

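The Meg3 to Mirg cluster comprises the non-coding genes annotated by GENCODE release M21 (assembly GRCm38) at chr12:109541001-109749460, a stretch of 208 kb that opens with Meg3 and ends with Mirg. The annotation places 99 non-coding genes there, of which 90 had a row in both count tables, out of 41091 gene IDs in all. These 90 members were 58 miRNA genes, 23 snoRNA genes, 3 misc_RNA genes and 6 long genes, namely Meg3, Gm26906, Rian, Gm26945, B830012L14Rik and Mirg. The other 9 annotated genes were not analysed here. The interval was chosen because its members were higher together at 3 hr after induction of long-term potentiation (LTP), so the 3 hr difference between LTP and control describes how the members were selected. It is given without p-values, and where members are said to be called at 3 hr, this describes the selection and supports nothing.

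Expression was measured by RNA-seq of total RNA in 12 libraries of hippocampal mini-slices from wild type male C57BL/6 mice aged 2 to 3 months, with the dentate gyrus trimmed off and 2 hr of recovery before treatment. LTP slices received 50 uM forskolin, which activates adenylyl cyclase, and during the second part of a 10 min treatment also 30 mM KCl and 10 mM calcium, whereas control slices received 0.2% DMSO for the same 10 min. Slices were collected at 1 hr or 3 hr, giving 4 groups of 3 libraries (1 hr control, 1 hr LTP, 3 hr control, 3 hr LTP), and within a time point each animal gave both a control and an LTP library. The study set 1 hr control replicate 2 aside as an outlier of its clustering, so means of the 1 hr control refer to the other 2 libraries. Values of replicate 2 are given separately for some members and sums.

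The cluster is the maternally expressed, non-coding side of the imprinted Dlk1-Dio3 domain, a region in which the parental origin of the chromosome decides which genes are transcribed. Meg3 and Rian are long non-coding RNAs that are abundant in neurons. Rian and the stretch behind it carry tandem copies of box C/D snoRNAs, a class that usually guides methylation of other RNAs and is released from introns, and the stretches around Rtl1 and up to Mirg carry a dense array of miRNA hairpins that are cut from longer primary transcripts. Mature miRNAs silence target mRNAs chiefly through their seed, bases 2 to 8. The paired 100-base reads of total RNA libraries cannot come from a mature miRNA. The counts of miRNA genes thus measured longer RNA covering the hairpin. The snoRNA members, 68 to 82 bases long, are also shorter than a 100-base read. Whether their counts came from the snoRNAs themselves or from longer RNA covering them was not tested. Levels of snoRNA members below are therefore levels of reads at these genes.

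Most of the small members are told apart by short sequences, which are shown here for the genes whose values are given below. RefSeq (GRCm38.p6) held 98 mature sequences for 53 of the 58 miRNA members, with 90 different seeds. The following mature miRNAs belong to 7 of the 10 miRNA members with the highest mean CPM, are written 5′ to 3′ with the seed in capitals, and share their seed with no other member.
miR-433-5p: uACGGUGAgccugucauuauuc
miR-433-3p: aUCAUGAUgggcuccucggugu
miR-127-5p: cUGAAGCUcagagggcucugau
miR-127-3p: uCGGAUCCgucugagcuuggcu
miR-341-5p: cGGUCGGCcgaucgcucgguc
miR-341-3p: uCGGUCGAucggucggucggu
miR-1188-5p: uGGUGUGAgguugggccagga
miR-1188-3p: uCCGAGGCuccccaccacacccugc
miR-667-5p: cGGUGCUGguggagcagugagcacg
miR-667-3p: uGACACCUgccacccagcccaag
miR-654-5p: uGGUAAGCugcagaacaugugu
miR-654-3p: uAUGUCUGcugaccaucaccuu
miR-541-5p: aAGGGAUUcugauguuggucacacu
miR-541-3p: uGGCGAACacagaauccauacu
The remaining named miRNA members with a RefSeq entry, Mir1193 and Mir453, shared seeds with other members. Mir1193 had the seed of miR-379-5p on its 5p arm and that of miR-370-5p on its 3p arm, and miR-453 had that of miR-496a-5p, as these lines show in pairs.
miR-379-5p: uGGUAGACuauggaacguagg
miR-1193-5p: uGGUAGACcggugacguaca
miR-370-5p: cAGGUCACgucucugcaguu
miR-1193-3p: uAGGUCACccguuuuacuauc
miR-453: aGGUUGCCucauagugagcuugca
miR-496a-5p: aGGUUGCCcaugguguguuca
In all, 8 seeds were shared, each by 2 members.

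The 23 snoRNA members were 68 to 82 bases long, and no pair was identical. Their pairwise identity over 253 global alignments had a median of 60%, and 1 pair, Gm23736 and Gm22981, exceeded 90% (92% identity). The letters of the conserved box C (TGATGA, searched in the first 25 bases) were found in 18 members, those of box D (CTGA, searched in the last 25 bases) in 18, and both in 14. Sequences of the 7 snoRNA members with the highest mean CPM follow as the sense strand of their GENCODE M21 transcripts, 5′ to 3′, with matches to the 2 boxes in capitals. They are shown because the first of them, Gm23600, was the member that differed least between LTP and control at 3 hr, while the others include the snoRNA members called lower over time in control slices.
Gm23600: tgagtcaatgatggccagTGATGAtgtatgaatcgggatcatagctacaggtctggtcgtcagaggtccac
DQ267102: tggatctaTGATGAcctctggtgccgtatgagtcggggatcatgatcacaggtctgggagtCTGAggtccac
Gm25357: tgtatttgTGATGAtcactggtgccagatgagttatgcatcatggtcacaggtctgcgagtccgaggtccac
Gm27604: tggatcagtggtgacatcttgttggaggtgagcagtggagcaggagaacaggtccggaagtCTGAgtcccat
Gm25856: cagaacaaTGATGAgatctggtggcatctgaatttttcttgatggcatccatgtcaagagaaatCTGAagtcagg
Gm23787: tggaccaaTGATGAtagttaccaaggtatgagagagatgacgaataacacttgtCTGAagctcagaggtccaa
Gm22205: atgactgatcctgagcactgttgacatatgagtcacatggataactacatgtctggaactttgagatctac
DQ267102 was 80.6% identical to Gm25357, so reads of such copies may have been split or shared, depending on how multiply aligned reads were treated.

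RefSeq gave promoter windows, from 250 bases before to 50 bases after an annotated start, for 3 of the long members. The window of the first Meg3 start (chr12:109540746-109541045, plus strand) held the palindrome TGACGTCA, known as the full cAMP response element, which forskolin-activated signalling is known to act through. It is printed with that element in capitals.
Meg3 promoter: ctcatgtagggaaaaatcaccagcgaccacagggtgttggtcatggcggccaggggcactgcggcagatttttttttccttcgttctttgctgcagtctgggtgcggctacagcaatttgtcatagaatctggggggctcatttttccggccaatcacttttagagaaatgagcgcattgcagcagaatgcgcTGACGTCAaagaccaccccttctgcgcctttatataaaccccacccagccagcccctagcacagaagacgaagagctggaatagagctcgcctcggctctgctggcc
The element ended 50 bases upstream of the start. The same 8 letters were present in 588 of 32851 promoter windows of this length (1.79%). They were not in the second Meg3 window or in those of Rian and Mirg. The match is a description of letters, and binding was not measured.

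Library totals ran from 37118382 to 50815001 counts, and 3 counts corresponded to 0.059 to 0.0808 CPM (counts per 1000000 library counts) on the unscaled totals. The CPM of genes and classes given here were in addition scaled with TMM. The members held between 0.186% and 0.287% of a library's counts. Meg3 alone contributed 64.3% of all member counts and Rian 30%, against 1.08% for the 58 miRNA members and 0.722% for the 23 snoRNA members. Among the marker lists, summed levels of the dentate granule cell markers were 112 to 213 CPM over all libraries, and 124 to 213 CPM within 3 hr LTP. The pyramidal neuron list was at 2071 to 3207 CPM, most of it from Camk2a alone (group means 1669 to 2125 CPM). Such sums of different genes do not compare amounts of cells. No marker of any list was at 0. None of the 26 markers was called between LTP and control at either time. Between 1 hr and 3 hr the microglia list was lower, at 95.4 to 109 CPM in the 3 hr libraries against 135 to 152 CPM at 1 hr. Single markers of other lists were also called between 1 hr and 3 hr control, namely Neurod6 (log2 fold change -1.10) and Fibcd1 (0.40) of pyramidal neurons, Gad2 (-0.41) of inhibitory neurons, Mbp (0.52) of oligodendrocytes, and Flt1 (-0.32) and Pecam1 (-0.37) of endothelium. Calls were common in this comparison: of all 18584 genes tested, 16.1% were called higher and 16.8% lower, so nothing is read from the number of markers called. The part of these markers' cells in the changes over time described below was not tested. In bulk slices, fewer cells of a type and less RNA per cell cannot be told apart.

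Of the 90 members, 18 had no count in any library. Of these, 14 lay wholly in an exon of Meg3, Rian or Mirg on the same strand (3, 7 and 4 genes), 3 lay on the minus strand opposite an annotated miRNA, and 1, Mir668, overlapped a Mirg exon in part. Only 4 other small members lay wholly in an exon and had counts. Whether the counting left out reads shared by 2 genes is not stated, so a 0 at these places does not show that the RNA was absent. The 6 minus-strand members had 10 counts or fewer over all libraries except Mir3071, which lies in the minus-strand gene Rtl1 and had 270. The whole of Rtl1 had only 1 to 15 counts in any library, and the source of the Mir3071 reads was not tested. The other 84 of the 90 members were on the plus strand. After the filter on low counts, 63 members entered the 3 hr fit and 50 the 1 hr fit. A member can pass this filter through its LTP libraries alone, so counts below refer to the members that passed and not to all 90.

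The long members differed widely in level. Per kb of exonic length at 3 hr, Meg3 stood at 70.7 ± 13.2 CPM (SD, n = 3) in control, Rian at 35.1 ± 0.313, Mirg at 6.77 ± 0.556, Gm26945 at 5.42 ± 0.419 and B830012L14Rik at 1.02 ± 0.0368. The 3 hr control ranges of Mirg, 6.3 to 7.39, and Gm26945, 4.95 to 5.75, did not overlap. Gm26906 (minus strand, opposite Meg3) had 10 counts in all and is not described further.

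The difference between LTP and control at 3 hr was largest in the long genes with the lower levels. Mirg (ENSMUSG00000097391, chr12:109729764-109749460), the host of the last miRNAs, stood at 48.4, 46.0 and 53.9 CPM in the control libraries and at 86.1, 93.7 and 81.3 CPM in the LTP libraries, a log2 fold change of 0.83 (SE 0.082). B830012L14Rik (ENSMUSG00000098202, chr12:109695586-109702587), a lincRNA between Rian and Mirg, was at 4.48, 4.53 and 4.79 CPM in control and 9.56, 8.70 and 12.7 CPM in LTP, or 1.18 (SE 0.144). Gm26945 (ENSMUSG00000098061, chr12:109640341-109642351), a single-exon lincRNA inside Rian, was at 11.6, 9.95 and 11.2 CPM in control and 17.2, 21.3 and 18.9 CPM in LTP, or 0.82 (SE 0.101). In these 3 genes every LTP library lay above every control library, as the choice of the interval favoured. Meg3 (ENSMUSG00000021268, chr12:109541001-109571726) was at 1109, 1176 and 1553 CPM in control and 1626, 1431 and 2087 CPM in LTP, a log2 fold change of 0.43 (SE 0.161), with overlapping groups. Rian (ENSMUSG00000097451, chr12:109603940-109661716) was at 646, 638 and 635 CPM in control and 686, 782 and 687 CPM in LTP, or 0.18 (SE 0.0691). The log2 fold change of Rian was thus below that of Gm26945, which lies within it. The groups of Rian did not overlap, but its log2 fold change was 0.12 without 3 hr LTP replicate 2, its highest library. That of Meg3 ran from 0.26 without 3 hr LTP replicate 3 to 0.61 without 3 hr control replicate 3.

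**Figure D1:**
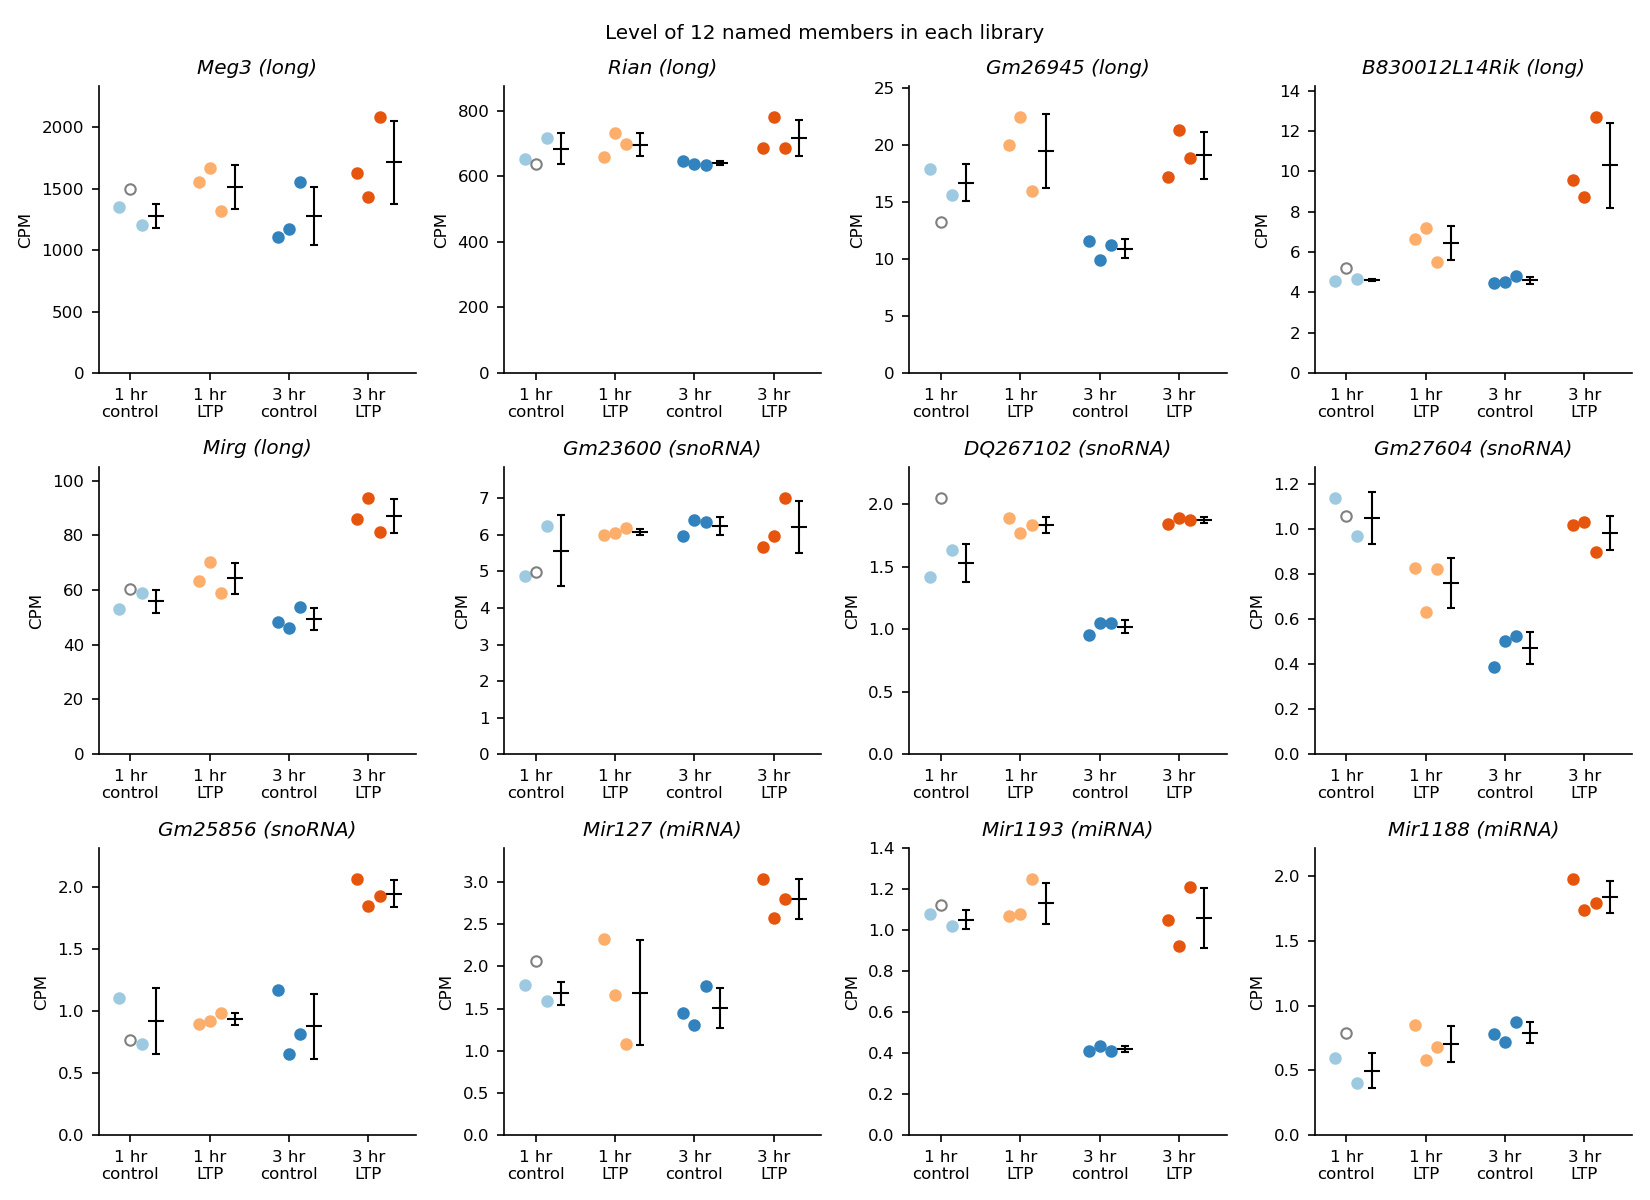
Level in CPM of 12 named members (5 long, 4 snoRNA, 3 miRNA) in each of the 12 libraries; points are libraries, the bar beside them is mean ± SD, and the open grey point is 1 hr control replicate 2, which is not in the mean. Mirg, B830012L14Rik, Gm25856 and Mir1188 have their highest 3 points in the 3 hr LTP group, Gm23600 has overlapping groups throughout, and Gm26945, DQ267102, Gm27604 and Mir1193 have their lowest 3 points in the 3 hr control group.

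At the thresholds used (adjusted p under 0.1 and fold change over 1.2), the selecting contrast called 34 of the 63 members that passed the filter at 3 hr, all higher in LTP. Over all 17508 genes tested 5.07% were called higher and 1.53% lower; since the interval was picked for this contrast, nothing is read from the members' count. By class the called members were 24 of 42 miRNA, 7 of 15 snoRNA and 3 of 5 long genes. The median log2 fold change was 1.07 for miRNA, 1.02 for snoRNA and 0.82 for long members, against 0.00 for all genes tested. The lowest log2 fold changes were those of Gm23600 (0.00) and Rian (0.18), and the highest were those of Mir337 (2.18) and Gm23912 (2.09), both chosen after their values were seen. LTP libraries lay wholly above control libraries for 54 of the 63 members, where 12.9% of all genes did. Without a filter, over the 72 members with a count, 69 had a log2 fold change above 0, with a median of 1.02. The number called depended on the libraries: without 3 hr control replicate 2 it was 9, without 3 hr control replicate 1 it was 13, without 3 hr LTP replicate 1 it was 15 and without 3 hr control replicate 3 it was 18. Calls over all genes fell as well in these fits, from 888 to 210, 267, 293 and 370. The median log2 fold change of the members tested was 1.02, 0.95, 1.08 and 1.11 in these 4 fits, and 0.90 without 3 hr LTP replicate 3.

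Position along the cluster is described with the same 3 hr log2 fold changes that selected the interval, so it supports nothing. Values within a stretch spread widely and the stretches overlapped. They ran from 0.64 to 2.18 between Meg3 and Rian, 0.00 to 2.09 over Rian and 0.32 to 1.64 between Rian and Mirg. The median log2 fold change at 3 hr was 0.75 over Meg3 with the gene tested in its span (2 genes tested), 0.99 in the stretch between Meg3 and Rian (12 genes tested), 0.86 over Rian with the genes in its span (12), 1.13 between Rian and Mirg (30) and 0.83 over Mirg with the genes in its span (7). Small members in introns of a long gene had a median of 0.77 (13 genes), those between the long genes 1.13 (39) and those touching an exon 1.05 (6). Rian's own log2 fold change of 0.18 was below that of the genes tested within its span, except Gm23600.

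**Figure D2:**
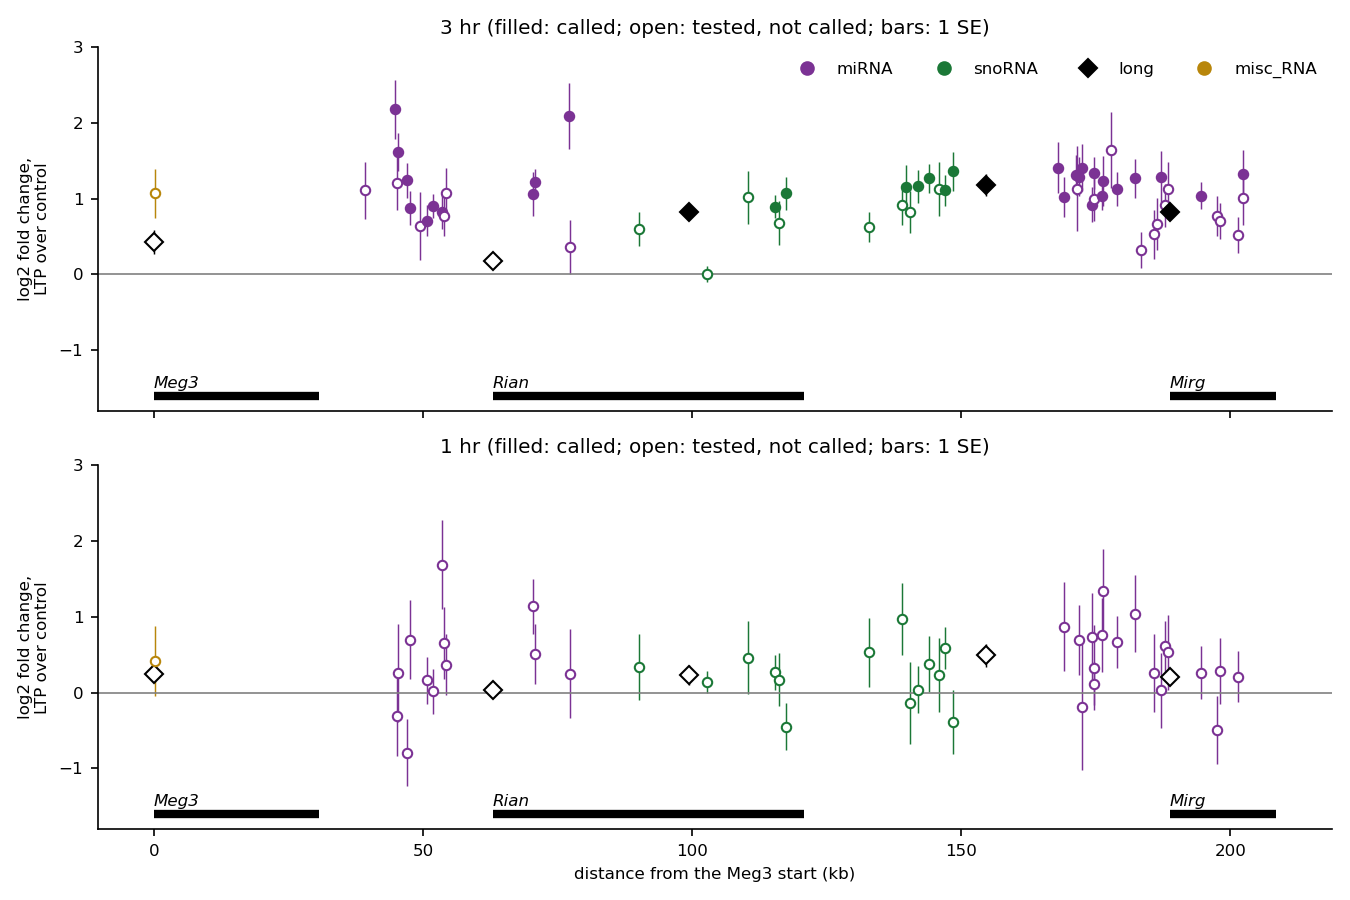
Log2 fold change of LTP over control with 1 standard error at 3 hr (top) and 1 hr (bottom) for each member tested, by distance in kb from the Meg3 start; colour gives the class, diamonds are long genes, filled points were called and black bars mark Meg3, Rian and Mirg. At 3 hr the 63 points lie between 0.00 and 2.18, and at 1 hr the 50 points lie between -0.79 and 1.69 with none filled.

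Among the snoRNA members the most counted, Gm23600 (ENSMUSG00000087885, chr12:109643748-109643818, in a Rian intron), had 250 to 327 counts in each 3 hr library. Its level was 5.97, 6.42 and 6.36 CPM in 3 hr control and 5.68, 5.98 and 7.02 CPM in 3 hr LTP, so the groups overlapped. DQ267102 (chr12:109656345-109656416), further along Rian, was at 0.952, 1.05 and 1.05 CPM in control and 1.84, 1.89 and 1.87 CPM in LTP (log2 fold change 0.89, SE 0.152). Both genes lie in introns of Rian, and the groups overlapped in the first and not in the second. Gm25856 (chr12:109682994-109683068), between Rian and Mirg, was at 1.17, 0.653 and 0.817 CPM in control and 2.07, 1.85 and 1.93 CPM in LTP (1.16, SE 0.218). Gm23787 (chr12:109684962-109685034), its neighbour, was at 0.930, 0.653 and 0.681 CPM in control and 1.79, 1.96 and 1.66 CPM in LTP (1.27, SE 0.192). Gm22205 (chr12:109688055-109688125), in which neither box was found, was at 0.843, 0.632 and 0.681 CPM in control and 1.32, 1.82 and 1.48 CPM in LTP (1.11, SE 0.205). In these 4 genes the 3 hr LTP libraries all exceeded the 3 hr control libraries. Gm27604 (chr12:109658407-109658478), which lies in a Rian exon, had 0.389, 0.501 and 0.525 CPM in control and 1.02, 1.03 and 0.897 CPM in LTP (1.07, SE 0.214). Gm25357 and Gm23347 differed by 0.68 (SE 0.29) and 0.62 (SE 0.197) and were not called. AF357428 was the first member short of the threshold, with 0.92 (SE 0.27).

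Among the miRNA members, single hairpins had at most 134 counts in a library, so each value rests on few reads. Mir127 (ENSMUSG00000070076, chr12:109592846-109592915), whose hairpin lies opposite an Rtl1 exon, had 67, 60 and 91 counts in 3 hr control and 134, 117 and 106 in 3 hr LTP. Its level was 1.45, 1.31 and 1.77 CPM against 3.04, 2.57 and 2.80 CPM, a log2 fold change of 0.90 (SE 0.162). Mir433 (chr12:109591715-109591838), from the same stretch, was at 0.887, 0.958 and 1.19 CPM against 1.36, 1.63 and 1.95 CPM (0.71, SE 0.201) and was the last member inside the threshold. In both genes the groups did not overlap. Mir1188 (chr12:109611822-109611941), in a Rian intron, was at 0.779, 0.719 and 0.876 CPM against 1.98, 1.74 and 1.79 CPM (1.22, SE 0.17). Mir341, in the same host, was at 0.606, 0.806 and 0.856 CPM against 1.45, 1.08 and 2.22 CPM (1.06, SE 0.286). Mir1193 (chr12:109715671-109715791), in the array before Mirg, was at 0.411, 0.436 and 0.409 CPM against 1.05, 0.923 and 1.21 CPM (1.34, SE 0.212). The SD of Mir1193 in 3 hr control, 0.0149 CPM, came from 19, 20 and 21 counts and is below the counting error of such numbers. Mir667 and Mir654 in that array differed by 1.13 (SE 0.223) and 1.27 (SE 0.258), and Gm27379, not called, by 0.91 (SE 0.283). Within Mirg, Mir453 (chr12:109735619-109735700) was at 0.822, 0.936 and 1.07 CPM against 1.84, 2.13 and 1.82 CPM (1.04, SE 0.173). Mir541, also in a Mirg intron, was at 1.23, 0.871 and 1.21 CPM against 1.39, 2.07 and 1.24 CPM (0.52, SE 0.24) and was not called. Its lowest LTP library was only just above its highest control library.

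The libraries taken at 1 hr did not enter the choice of the interval, and the same comparison was tested there. None of the 50 members that passed the filter was called by the quasi-likelihood test of edgeR, where 0.778% of 17736 genes were called higher. At an unadjusted p under 0.05 there were 6 members (Meg3, Mir434, Mir341, B830012L14Rik, Mir543 and Mirg), beside 1190 of 17736 genes, all 6 higher in LTP, of which Mir434 and Mir543 are named after their values were seen, and DESeq2 and limma-voom called 0 as well, with 5 and 6 members at that unadjusted level. B830012L14Rik had the lowest edgeR adjusted p, 0.375, with 4.57 and 4.64 CPM in control and 6.66, 7.17 and 5.52 CPM in LTP (log2 fold change 0.49, SE 0.156). The control library set aside had 5.21 CPM, also below the LTP libraries. Mir341 was at 0.517 and 0.568 CPM in control and 1.48, 1.32 and 0.776 CPM in LTP (1.14, SE 0.363, edgeR adjusted p = 0.385), but the library set aside was at 1.24 CPM, within the LTP range. Meg3 was at 1350.3 and 1209 CPM in control and 1558, 1668 and 1319 CPM in LTP (0.25, SE 0.0894, edgeR adjusted p = 0.497), so the groups overlapped. Mirg was at 52.9 and 58.9 CPM against 63.4, 70.2 and 58.9 CPM (0.21, SE 0.0879, edgeR adjusted p = 0.681). Rian was at 653 and 718 CPM against 659.5, 731 and 700.3 CPM (0.04, SE 0.0703, edgeR adjusted p = 0.974). In the library set aside Meg3 was at 1497 CPM and Mirg at 60.4 CPM, both within their LTP ranges, and Rian at 637 CPM, below its own.

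As a description, 43 of the 50 members had a log2 fold change above 0 at 1 hr, with a median of 0.28, whereas 49.7% of all genes tested were above 0, with a median of 0.00. Other miRNA and snoRNA genes were above 0 in 59.7% of 67 and 58.7% of 143 cases. The medians were 0.35 for 30 miRNA, 0.25 for 14 snoRNA and 0.23 for 5 long members. LTP libraries lay wholly above control libraries for 16 members and wholly below for 4, where 10.5% of all genes had LTP libraries wholly above and 2137 of 17736 wholly below. The animals differed: in animal 1, 42 of the 50 members had a higher level in LTP than in control, in animal 2, whose control is the library set aside, 27, and in animal 3, 29. At 3 hr these numbers were 62, 60 and 62 of 63. With the library set aside included, 0 of 49 members were called and 38 were above 0. Without 1 hr LTP replicate 3, edgeR called 4 members higher (Meg3, Mir434, Mir341 and B830012L14Rik) among 328 of 17497 genes called higher. With no filter beyond 1 count it called 2 (Mir434 and Mir341) among 324 of 26349. Whether the effect of LTP differed between the times was not tested, because such a test would include the selecting contrast.

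Summed counts over a whole class, with no filter and every member included, gave the same comparison with less counting error. The 58 miRNA members together stood at 14.6 and 15.5 CPM in 1 hr control, 21.6, 20.6 and 18.2 CPM in 1 hr LTP, 19.6, 18.6 and 23.2 CPM in 3 hr control and 39.7, 37.9 and 44.4 CPM in 3 hr LTP. The 3 hr LTP libraries were the highest. All 1 hr LTP libraries were above both control libraries used, and 2 of the 3 were above the one set aside, which had 19.9 CPM. The log2 ratio of LTP to control means was 0.99 at 3 hr and 0.42 at 1 hr, or 0.27 at 1 hr with all controls. The 23 snoRNA members stood at 13.6 and 14.6 CPM, 16.5, 16.5 and 15.7 CPM, 14, 13.9 and 13.9 CPM, and 20.7, 21.4 and 21.9 CPM in the same order of groups, with log2 ratios of 0.61 at 3 hr and 0.20 at 1 hr. Without Gm23600, which held a large part of these counts, the 3 hr ratio was 0.97. The 6 long members stood at 2042 ± 51.2 CPM (SD, n = 2), 2302 ± 199.9 CPM, 1985 ± 239 CPM and 2549.6 ± 295 CPM (n = 3 each), with ratios of 0.36 at 3 hr and 0.17 at 1 hr, and at 1 hr the ratio was 0.05 without Meg3. The 4 long members other than Meg3 and Rian had a ratio of 0.84 at 3 hr and 0.22 at 1 hr.

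**Figure D3:**
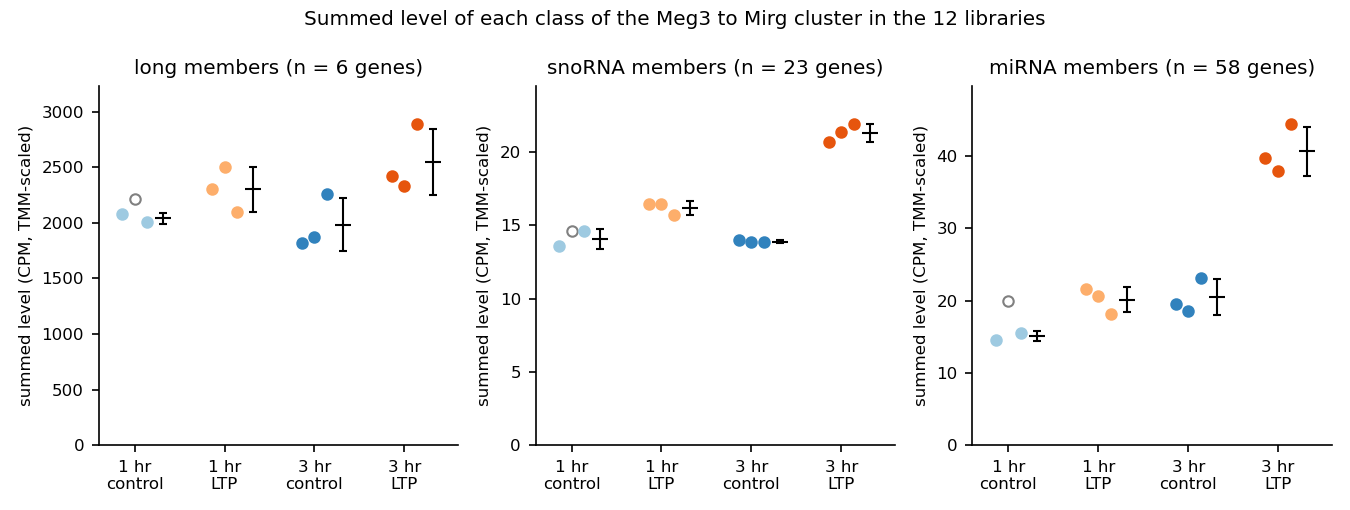
Summed level in CPM of the 6 long, 23 snoRNA and 58 miRNA members in each of the 12 libraries, each axis starting at 0; points are libraries, bars are mean ± SD and the open grey point is 1 hr control replicate 2, which is not in the mean. The 3 hr LTP libraries are the highest 3 for snoRNA (20.7 to 21.9) and miRNA (37.9 to 44.4), while for the long members 3 hr LTP (2337 to 2887) overlaps 1 hr LTP (2099.8 to 2499.6).

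Setting miRNA counts against Rian counts of the same library gives a ratio that does not depend on scaling between libraries. Rian is only a reference here, since most miRNA members lie outside it. Per 1000 counts of Rian there were 21.6 to 31.3 counts of miRNA members in 1 hr control, 26 to 32.8 in 1 hr LTP, 29.1 to 36.5 in 3 hr control and 48.4 to 64.7 in 3 hr LTP. For snoRNA members the same ratio was 20.4 to 22.9, 22.4 to 25, 21.7 to 21.9 and 27.3 to 31.8. In both classes the 3 hr LTP libraries were above all others. In both classes the 1 hr groups overlapped, by the control library set aside. Per 1000 counts of Meg3 the miRNA members had 10.8 and 12.9 counts in the 1 hr control libraries used and 13.9, 12.3 and 13.8 in 1 hr LTP, so with this reference the groups overlapped without that library as well. The same ratio was 14.9 to 17.7 in 3 hr control and 21.3 to 26.5 in 3 hr LTP.

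Members differed in how they stood at 3 hr relative to 1 hr in control slices, a comparison that shares its 3 hr control libraries with the selecting contrast and in which time and animal cannot be told apart. Of 65 members that passed the filter, 17 were called higher at 3 hr and 5 lower, while 16.1% of all 18584 genes were called higher and 16.8% lower. The 17 were 15 miRNA and 2 snoRNA members. With the 1 hr control library set aside included, 7 of 63 members were called higher, beside 2736 of 18240 genes, and the same 5 lower, beside 2255. Without 1 hr control replicate 1 the members higher and lower were 10 and 5 of 66 (2756 and 2188 of 19215 genes), without 1 hr control replicate 3 they were 7 and 3 of 66 (2357 and 1855 of 19264), and without 3 hr control replicate 3 they were 10 and 4 of 65 (2562 and 2217 of 18464). Requiring 10 counts in every library left 31 members, of which 4 were called higher, beside 3118 of 15658 genes. The share of members called higher was thus below that of all genes with the library set aside, without 1 hr control replicate 3 and with 10 counts required.

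The 5 members called lower in 3 hr than in 1 hr control were Mir1193 (log2 fold change -1.35, SE 0.241), Gm27604 (-1.18, SE 0.251), Gm22205 (-0.75, SE 0.259), Gm26945 (-0.65, SE 0.136) and DQ267102 (-0.62, SE 0.178). Mir1193, DQ267102 and Gm26945 stood at 3 hr LTP near their 1 hr LTP level. For Gm27604 every 3 hr LTP library (0.897 to 1.03 CPM) was above every 1 hr LTP library (0.633 to 0.826 CPM). For Gm22205 the 3 hr LTP libraries (1.32 to 1.82 CPM) were above both 1 hr controls used (1.08 and 1.28 CPM), beside 1.34 to 2.11 CPM in 1 hr LTP. Mir1193 had 1.08 and 1.02 CPM in 1 hr control, 1.07, 1.08 and 1.25 CPM in 1 hr LTP, and the 1.05, 0.923 and 1.21 CPM given above in 3 hr LTP, so that only the 3 hr control libraries stood apart. DQ267102 had 1.42 and 1.63 CPM in 1 hr control and 1.89, 1.77 and 1.83 CPM in 1 hr LTP, the latter close to the 3 hr LTP values. The control library set aside was at 2.05 CPM, above every LTP library of either time. Gm26945 had 17.9 and 15.6 CPM in 1 hr control and 20, 22.5 and 16 CPM in 1 hr LTP. Between 1 hr and 3 hr LTP the log2 fold changes of the 5 lay between -0.21 and 0.35, and none was called.

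The 17 members called higher over time in control slices had a median log2 fold change of 1.35 there and of 1.46 between 1 hr and 3 hr LTP, where 16 of them were called higher. Some rest on very few counts in the 1 hr controls used, namely Mir369 (0 and 0), Mir431 (1 and 0), Gm23736 (0 and 2) and Mir412 (1 and 2). These were named after their values were seen. The others of the 17 had more than 3 counts in at least 1 of these libraries. Mir1188 had 0.594 and 0.403 CPM in 1 hr control, 0.850, 0.580 and 0.682 CPM in 1 hr LTP, and its highest 1 hr LTP library was above 2 of the 3 libraries of 3 hr control. The control library of 1 hr set aside had 0.786 CPM, within the 3 hr control range, and with it Mir1188 was no longer called over time (0.40). Nor was it called by DESeq2 (0.66), by limma-voom (0.66), without a filter (0.67), or without 1 hr control replicate 3 (0.42), 3 hr LTP replicate 1 (0.67), 3 hr control replicate 1 (0.68) or 3 hr control replicate 3 (0.58). Mir654 had 0.207 and 0.308 CPM in 1 hr control and 0.316, 0.501 and 0.776 CPM in 1 hr LTP, against 0.562, 0.436 and 0.817 CPM in 3 hr control. Mir453 had 0.646 and 0.592 CPM in 1 hr control and 0.680, 0.844 and 0.682 CPM in 1 hr LTP. In the library set aside Mir654 was at 0.538 CPM, within the ranges of 1 hr LTP and 3 hr control. Mir453 was at 0.641 CPM there, between the other 1 hr controls. In these 3 genes the 3 hr LTP group was the highest of the 4.

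Between 1 hr and 3 hr LTP, 43 of 65 members were called higher and none lower, where 18.6% of all genes were called higher and 17.3% lower. This contrast shares its 3 hr LTP libraries with the selecting one. The 43 were 33 of 43 miRNA, 8 of 16 snoRNA and 2 of 5 long members, the latter B830012L14Rik (0.66, SE 0.139) and Mirg (0.42, SE 0.0843). Mir3070a, chosen after its values were seen, had the lowest log2 fold change of LTP over control at 1 hr (-0.79) and 1.24 at 3 hr. Meg3, Rian and Gm23600 were not called, with 0.16 (SE 0.144), 0.02 (SE 0.0689) and 0.01 (SE 0.117).

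**Figure D4:**
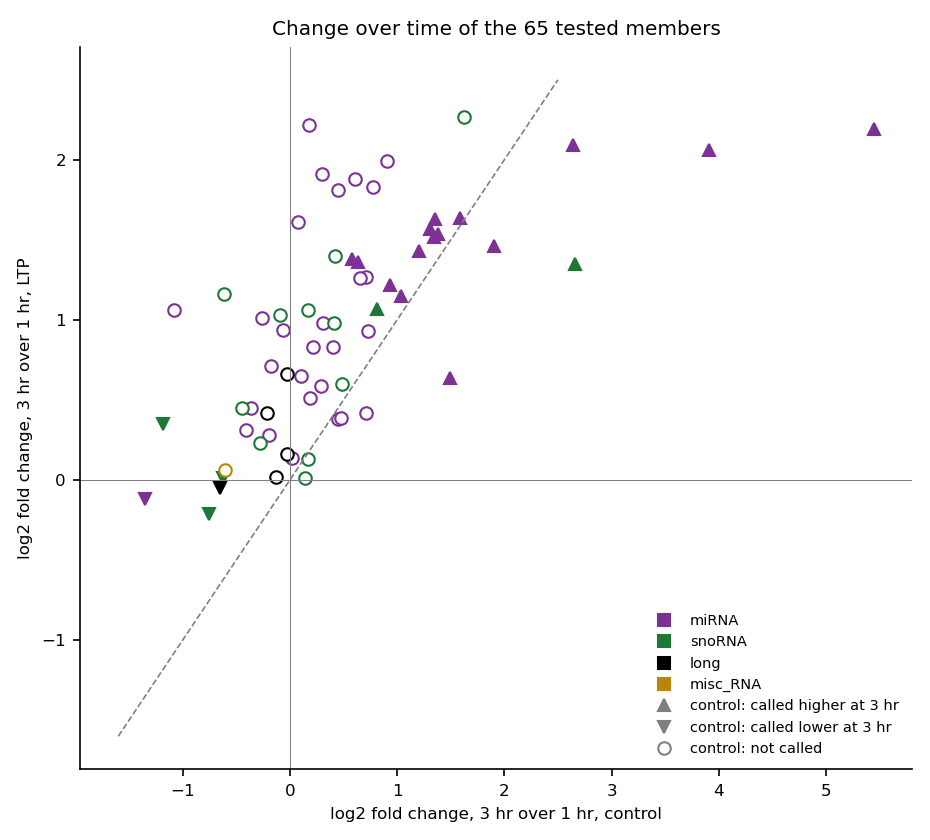
Log2 fold change from 1 hr to 3 hr in control (horizontal) and in LTP slices (vertical) for the 65 members tested; colour gives the class, triangles point in the direction of a call in control, open circles were not called there and the dashed line marks equal change. The 5 members called lower in control lie between -0.21 and 0.35 on the vertical axis, and the 17 called higher lie between 0.64 and 2.19 on it.

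The members were set beside the other miRNA and snoRNA genes of the tables. At 1 hr, 3 of 67 other miRNA genes and 1 of 143 other snoRNA genes were called higher, with medians of 0.24 and 0.09. At 3 hr, 4 of 82 other miRNA genes and 5 of 182 other snoRNA genes were called higher, with medians of 0.34 and 0.22, but the members had been selected on that contrast. Over time in control slices, 31 of 117 other miRNA genes (26.5%) and 50 of 206 other snoRNA genes (24.3%) were called higher, beside 15 of 43 miRNA members (34.9%) and 2 of 16 snoRNA members (12.5%). Over time in LTP slices, 42 of 117 other miRNA genes (35.9%) and 64 of 206 other snoRNA genes (31.1%) were called higher, beside 33 of 43 miRNA members (76.7%) and 8 of 16 snoRNA members, which share their 3 hr LTP libraries with the selecting contrast. Higher miRNA and snoRNA genes over time were thus not limited to the cluster. The other brain snoRNA cluster, Snord115 and Snord116 with Snhg14, had only 2 of its 18 genes past the filter, with log2 fold changes at 3 hr of 0.43 (SE 0.0714) for Snhg14, which was called, and 0.86 for the other gene, which was not.

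Protein-coding genes of the domain and its flanks, of which Dlk1, Rtl1 and Dio3 are known to be expressed chiefly from the paternal chromosome, were tested as a list. Rtl1, a retrotransposon-derived gene on the minus strand opposite Mir127 and its neighbours, had 1 to 15 counts in any library and fell below the filter at 3 hr; at 1 hr its log2 fold change was 0.57 (SE 0.614, edgeR adjusted p = 0.944). Dlk1, the nearest gene with counts before the interval at 77.7 kb, had 2 to 33 counts and a log2 fold change of 0.71 (SE 0.538, edgeR adjusted p = 0.501) at 3 hr. Dio3, the nearest after it at 529.6 kb, encodes a deiodinase and had -0.71 (SE 0.42, edgeR adjusted p = 0.385). How reads of overlapping genes on opposite strands were counted is not given, so the low counts do not show that Rtl1 RNA was nearly absent, and its response at 3 hr cannot be read from these counts. The 5 other genes of the list tested at 3 hr were Dlk1, Dio3 and the flanking genes Begain, Wdr25 and Ppp2r5c. None of these at 3 hr and none of the 6 with Rtl1 at 1 hr was called.

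Proteins that process or use miRNAs were tested as a list of 10, of which 3 were called higher at 3 hr, where 5.07% of all genes were, and 0 at 1 hr, where 0.778% were. Ago2, the slicing Argonaute, rose by 0.56 (SE 0.125, edgeR adjusted p = 0.0464), Ago3 by 0.42 (SE 0.0584, edgeR adjusted p = 0.00883) and Dicer1, which cuts hairpin precursors, by 0.32 (SE 0.0671, edgeR adjusted p = 0.0373) on the log2 scale. The median of the list was 0.18. None of 7 box C/D snoRNP proteins and none of 10 known regulators of the domain was called at either time, with medians of -0.08 and 0.00 at 3 hr. Of 6 other long non-coding RNAs kept in the nucleus, a short list chosen with earlier results known, 5 were called higher at 3 hr, beside 91 of 1252 other long non-coding genes (7.27%) and 5.07% of all genes. They were Neat1, the scaffold of paraspeckles (0.93, SE 0.252, edgeR adjusted p = 0.0835), Kcnq1ot1, an imprinted antisense transcript (0.71, SE 0.091, edgeR adjusted p = 0.00587), Miat (0.45, SE 0.126, edgeR adjusted p = 0.0905), Snhg14 (0.43, SE 0.0714, edgeR adjusted p = 0.0184) and Snhg11 (0.41, SE 0.0773, edgeR adjusted p = 0.0281). Neat1 was also called at 1 hr (0.92, SE 0.161, edgeR adjusted p = 0.0122). The share of nuclear RNA in each library was not measured, and its part in the members' values was not tested.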

How the data were processed

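RNA-seq of hippocampal mini-slices gave 12 libraries. The authors aligned paired-end reads with STAR 2.4.1c to GRCm38/mm10 and deposited raw counts per gene, not normalized, in 1 table per time point. Libraries were made with a stranded total RNA kit. The strand setting of the counting and the treatment of multiply aligned reads are not given in the sources used here, so values of overlapping genes and of similar copies are uncertain. Of 41091 gene IDs, 40217 matched GENCODE M21; the others stayed in library sizes and tests. 0 other per-sample columns were found.

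For the tests, edgeR 4.0.16 (R 4.3.3; filterByExpr, TMM, quasi-likelihood fit) was run on the counts, with p-values adjusted after Benjamini-Hochberg over all genes tested, and called at an adjusted p under 0.1 with a fold change over 1.2. Separate fits used the 6 libraries of 3 hr and 5 of 1 hr. Changes over time came from 1 model of 11 libraries. SE denotes the standard error on the log2 scale. For ratios within an animal, 0.1 CPM was added as pseudocount before taking log2. The fits were tested on simulated data. P-values measure the spread between animals of a group. Animals 1 to 3 of 1 hr were taken to differ from those of 3 hr.

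The members, the gene lists and the rule for naming genes were chosen with earlier results of these data known. Named were long members past the filter, the 10 miRNA and 8 snoRNA members with the highest mean CPM, members next to the threshold or with the lowest change at 3 hr, Rtl1, Dlk1, Dio3, and called genes of the lists.

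Pairing comes from the labels: an animal gave both slices. The correlation of paired deviations from the group means was -0.0169, -0.134 and 0.0741 at 1 hr and 0.0297, -0.0384 and 0.194 at 3 hr. Alternatives were DESeq2 1.42.0, limma-voom (limma 3.58.1), other scalings and filters, the animal as replicate block, each library left out, and all 1 hr libraries. Between replicates, chi-square per degree of freedom was at least 9.49, so none were near identical. The floor of 3 counts, on unscaled library totals, covers counting error only.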

Additional observations from a re-analysis of the deposited data

Results flagged for a closer look

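Gm27604, a snoRNA member in a Rian exon, lay lower in LTP than in control in each 1 hr animal and higher in each 3 hr animal. The log2 ratio of LTP to control was -0.42, -0.66 and -0.22 for the 1 hr animals 1, 2 and 3, and 1.2, 0.91 and 0.67 for the 3 hr animals. The control of 1 hr animal 2 is the library set aside. Without that library the 1 hr log2 fold change was -0.45 (SE 0.31, edgeR adjusted p = 0.9), and the gene was not called. The gene was flagged among the members for this pattern. The difference between the times was not tested, since the 3 hr contrast selected the members. Counts were 24 to 51 per library at 1 hr and 18 to 47 at 3 hr.

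The 1 hr control library that the study set aside (replicate 2) lay above both other 1 hr controls in the summed miRNA members, at 19.9 CPM against 14.6 and 15.5 CPM, and in the summed long members, at 2213 CPM against 2078 and 2006 CPM. It was above both for 25 of the 50 members tested at 1 hr and below both for 10, whereas among all 17736 genes tested it was above both for 6834 and below both for 6732. The cause was not tested.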

How the results depend on the processing

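Of 216 values recomputed under the alternatives for the main results, 190 stayed within 1.5 times the count or 1 SD of the reported value, 26 moved further and 0 reversed. At 3 hr the members called ran from 9 to 46 when 1 library was left out, the median log2 fold change from 0.90 to 1.11, and the median was 0.93 with at least 10 counts in every fitted library. With the replicate block 42 members were called at 3 hr, with the same 34 among them, and 0 at 1 hr. At 1 hr, leaving out a library gave 0 to 4 members called and a median of 0.31 to 0.38, against 0.28 as reported, 0.24 with all libraries and 0.26 with at least 10 counts in every fitted library, and without a filter beyond 1 count 2 were called with a median of 0.40. In 3 hr against 1 hr control, leaving out a library gave 7 to 17 members higher, 3 to 5 lower and a median of 0.29 to 0.50, the library set aside brought those higher to 7, and 10 counts in every library gave 4 and a median of 0.13. In 3 hr against 1 hr LTP, leaving out a library gave 34 to 42 members with medians of 0.86 to 1.09, and with 10 counts in every library 17 and 0.61, from 31 members tested. The class sums kept their sign, with these ranges when 1 library was left out: miRNA 0.92 to 1.09 at 3 hr and 0.37 to 0.49 at 1 hr, 0.27 with all controls; snoRNA 0.59 to 0.63 and 0.15 to 0.25, and 0.97 at 3 hr without Gm23600; long 0.26 to 0.46 and 0.11 to 0.24, and 0.05 at 1 hr without Meg3. Among named members 1418 values kept their side of the threshold, 65 fell short of it, 20 newly passed it and 0 reversed. All 6 libraries of 1 hr with the replicate block, an alternative chosen after seeing the data, called 0 members. Where 1 library is left in a group, its spread is assumed to be like the others'. Members with few counts limit the precision: 22 members with counts fell below the filter at 1 hr.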
